A study of Homo sapiens with 32 samples.

Results

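The comparison described here is that of nuclear RNA from HEK293T cells in which IGF2BP1 was knocked out with nuclear RNA from their CRISPR control cells. It rests on 6 of the 32 RNA-seq libraries of the series, namely 2 knockout and 4 control libraries, taken by their labels from the nuclear count table. HEK293T is a line derived from human embryonic kidney. Each knockout was made with a plasmid that did not integrate and that carried 3 guide RNAs and GFP. Single GFP-positive cells were then grown into colonies and checked for the protein. The IGF2BP1 knockout is therefore taken here to be 1 clone, which the sample titles do not state. The control cells received a guide RNA without a target and were made alongside; the labels do not say whether they are a clone. A difference made by the loss of IGF2BP1 and one made by the choice of the clone cannot be told apart. The nuclear libraries of the IGF2BP2 and IGF2BP3 knockouts, 2 of each and also taken to be from 1 clone per gene, entered the same fit.

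IGF2BP1 is an RNA-binding protein of the oncofetal insulin-like growth factor 2 mRNA-binding family. It is abundant in the embryo, largely silent in most adult tissues and made again in many tumours and cell lines. It binds mRNAs, many of them carrying N6-methyladenosine, mostly in the cytoplasm, where it is known to protect them from decay; it also passes through the nucleus and can bind transcripts there. The series title concerns the action of the family on innate immune signalling in leukaemia stem cells, and the HEK293T libraries compare the 3 knockouts by cell fraction.

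Nuclear RNA was isolated with a fractionation kit, treated with DNase I, selected for poly(A) and sequenced as 50-base read pairs. The 6 libraries held between 15992797 and 26093403 counts over genes, so a count of 3, used here as the floor for a gene without counts, stood for 0.115 to 0.188 CPM (counts per 1000000). Knockout replicates 1 and 2 belong to batches 1 and 2, each with a control library of the same batch, and control replicates 3 and 4 belong to batches 3 and 4 with the other knockouts. The fold changes below come from a fit with a batch term, so they set each knockout library against the control of its own batch, and controls 3 and 4 add to the estimate of the spread. Nothing in the labels says that the replicates were separate cultures, so the p-values measure the spread between these libraries.

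Knockout replicate 1 was found in the files under a second name. Its counts were equal to those of total RNA replicate 2 of the same knockout for all 62703 gene identifiers, with 0 that differed, whereas in every other nuclear and total pairing of this knockout between 16530 and 16837 of the expressed identifiers differed. Summed RNA of 8 mitochondrial genes was 18230 CPM in the shared library, against 15090 to 17940 CPM in the nuclear controls, 19810 CPM in nuclear knockout replicate 2, 21750 to 27870 CPM in the total RNA controls and 54150 to 64530 CPM in the cytoplasmic libraries. The shared library therefore lay nearest to the nuclear libraries by this measure. It is used here as a nuclear library, and the total RNA table is not used as a second line of evidence. Summed levels of 8 nuclear RNAs, among them MALAT1 and NEAT1, were 604 to 873 CPM in the controls and 733 and 611 CPM in the knockouts. The same sum was 691 to 777 CPM in the total RNA controls and 402 to 442 CPM in the cytoplasmic controls. It therefore did not separate nuclear from total RNA libraries. Summed RNA of 8 cytoplasmic mRNAs was 19540 CPM in the shared library. It was 18210 to 20350 CPM in the nuclear controls, 19820 CPM in total knockout replicate 1 and 21130 to 22270 CPM in the total RNA controls. Markers of other cell types were few: the 8 blood cell markers summed to 3.16 to 3.79 CPM in the 6 libraries, with 3 or 4 of them at 0 in each. The 8 fibroblast markers summed to 40.1 to 46.3 CPM in the controls and to 23.9 and 26.7 CPM in the knockouts, and COL1A1, a collagen gene on chromosome 17, was the 1 called member. The 12 renal markers summed to 165 to 192 CPM in the controls and to 194 and 200 CPM in the knockouts. The 8 neural markers, which this line expresses, summed to 1230 to 1310 CPM in the controls and to 1033 and 1155 CPM in the knockouts; of 7 tested, INA and NEFL were higher, and NEFM, VIM and NES were lower. Their part in the results below was not tested. Because CPM are shares of a library, fewer cells of a type and less RNA per cell cannot be told apart in these values.

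The targeted transcript was strongly reduced. IGF2BP1 (ENSG00000159217, chromosome 17, 48997412 to 49055650, plus strand, GRCh38) stood at 384, 388, 312 and 311 CPM in control replicates 1 to 4 and at 27.1 and 22.6 CPM in knockout replicates 1 and 2. All 4 controls lay more than 10 times above both knockout libraries, with no overlap. The log2 fold change was -3.98 ± 0.115 (SE), which is 6.33% of the control level, with an adjusted p of 1.34e-30 by edgeR's quasi-likelihood test. Guides act on DNA, so the level of the RNA does not measure the protein. The paralogues did not pass the test in nuclear RNA. IGF2BP2 stood at 67.2, 66.2, 58.2 and 62.5 CPM in the controls and 59.9 and 71 CPM in the knockouts, with a log2 difference of -0.05 ± 0.0965 (adjusted p = 0.776). IGF2BP3 stood at 65.2, 73.7, 71.8 and 74 CPM in the controls and 80.6 and 83.6 CPM in the knockouts; its log2 difference of 0.23 ± 0.0917 missed the threshold (adjusted p = 0.0633). In the other clones IGF2BP1 RNA differed from control by log2 values of -0.39 after the IGF2BP2 knockout and -0.50 after the IGF2BP3 knockout.

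Across the nucleus the knockout changed many genes, most of them by little. Of 18732 genes tested, 4811 passed an adjusted p of 0.05, a share of 25.7%; 2382 were higher (12.7%) and 2429 were lower (13%). Protein-coding genes, 14004 of those tested, had a called share of 30.7%. Among all called genes 2442 differed by less than 0.5 on the log2 scale, and 842 differed by at least 1, of which 379 were higher and 463 lower. Both same-batch pairs had the same sign for 4784 of the called genes. The fitted fold change comes from these same pairs, so this count is not separate support for the calls. The 4 controls and the 2 knockout libraries did not overlap in CPM for 7387 of the genes tested (39.4%), among them 4013 of the called genes. The number of higher genes fell to 1533 without control replicate 2 and to 1534 without knockout replicate 2, whereas it was 2248 without control replicate 1 and 2246 without knockout replicate 1.

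**Figure D1:**
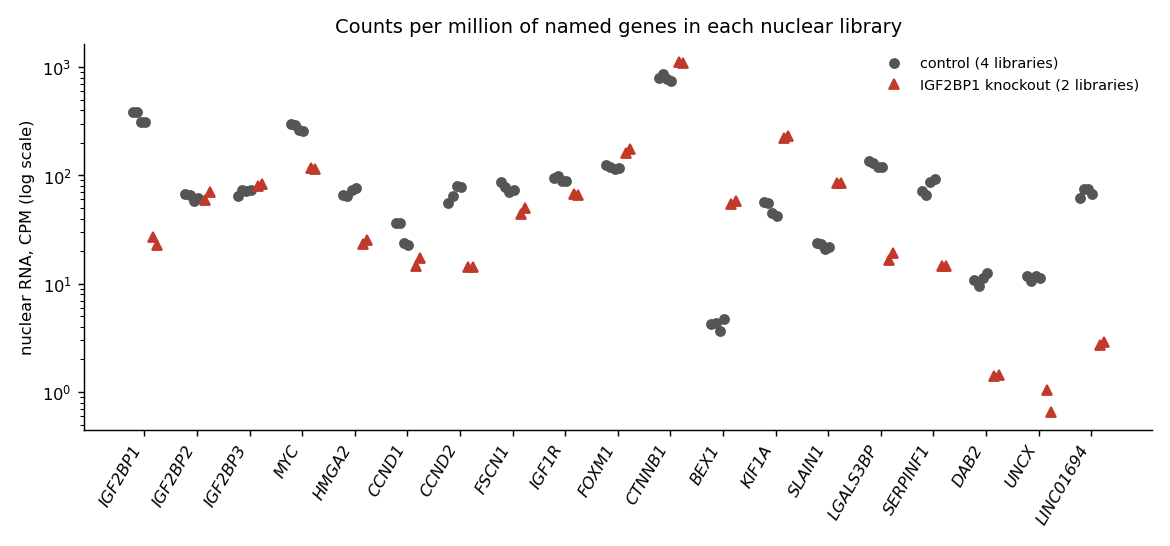
Level of named genes in nuclear RNA as CPM on a log axis, with a dot for each of the 4 control libraries and a triangle for each of the 2 IGF2BP1 knockout libraries. Dots and triangles of BEX1 are separated by more than 10 times, from at most 4.75 CPM in the controls to at least 55.1 CPM in the knockouts, and IGF2BP1 and LINC01694 are separated as far the other way.

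The most strongly raised gene of those at 5 CPM or more was BEX1 (ENSG00000133169, X, 103062651 to 103064240, minus strand), which encodes a small adaptor protein of neural cells. It stood at 4.23, 4.37, 3.66 and 4.75 CPM in the controls and at 55.1 and 57.9 CPM in the knockouts. Its log2 fold change was 3.70 ± 0.139 (adjusted p = 7.5e-26). BEX1 went the other way in the IGF2BP2 and IGF2BP3 knockouts, with log2 fold changes of -4.30 and -2.88. Of the 11 tested members of the BEX and TCEAL family, which sit in 1 cluster on the X chromosome, 6 were higher and 0 lower, with a median log2 fold change of 0.35 against 0.0045 over all genes. The called share of the family was 54.5%, beside 25.7% over all genes. Its medians in the IGF2BP2 and IGF2BP3 knockouts were 0.02 and 0.28. BEX2 rose by 0.47, BEX3 by 0.35, TCEAL9 by 0.45 and TCEAL3 by 0.63.

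Neuronal genes moved both ways as a list: of 66 tested genes of the neuronal cytoskeleton, vesicles and ion channels 17 were higher and 15 lower. This is a called share of 48.5%, beside 25.7% over all genes. KIF1A (chromosome 2, 240713761 to 240821036), a kinesin that carries synaptic vesicle precursors along axons, stood at 56.7, 55.8, 45.4 and 42.6 CPM in the controls and at 220 and 230 CPM in the knockouts. The knockouts were thus about 4 times the controls (log2 fold change 1.98 ± 0.102, adjusted p = 1.45e-20). FAT3, an atypical cadherin, rose from 4.64, 5.94, 5.25 and 6.07 CPM to 27.7 and 27.4 CPM, a log2 fold change of 2.36. SHC2, a signalling adaptor, rose by 2.54, RPRM, a cell-cycle inhibitor, by 2.18, and TNFRSF10D, a decoy receptor for TRAIL, by 2.09. FENDRR, a long noncoding RNA transcribed beside FOXF1, stood at 3.71, 2.41, 3.81 and 4.25 CPM and then at 14.3 and 13.3 CPM, a log2 fold change of 2.17. KIF1A, FAT3, SHC2, RPRM and TNFRSF10D were also higher after the other 2 knockouts, by 1.89 to 4.18 on the log2 scale. FENDRR was at 0.96 there for IGF2BP2 and at 0.10 for IGF2BP3.

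The matrix protein SPARC rose by 1.78 and SPINT2, an inhibitor of serine proteases, by 1.78. CDH2, which encodes N-cadherin, rose from 48.5, 52.3, 43.3 and 45.8 CPM to 122 and 126 CPM, a log2 fold change of 1.28. GPC3, a heparan sulphate proteoglycan of the cell surface, rose from 40.5 to 47.6 CPM in the controls to 119 and 127 CPM, a log2 fold change of 1.45. For none of these 4 did the groups overlap.

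The most strongly lowered genes at 5 CPM or more, IGF2BP1 aside, were headed by a long noncoding RNA. LINC01694 (ENSG00000233922, chromosome 21, 45593654 to 45603056, plus strand) stood at 62.6, 74.9, 75.2 and 67.4 CPM in the controls and at 2.73 and 2.93 CPM in the knockouts. This is 4.09% of the control level (log2 fold change -4.61 ± 0.133, adjusted p = 1.34e-30). It was also lower after the other 2 knockouts, by log2 values of -2.96 and -3.67. UNCX, a homeobox transcription factor, fell from 10.5 to 11.8 CPM in the controls to 1.04 and 0.651 CPM, a log2 fold change of -3.75. EDA2R, a receptor of the tumour necrosis factor family, stood at 5, 6.94, 6.84 and 8.38 CPM in the controls and at 0.801 and 1.02 CPM in the knockouts (-2.71, adjusted p = 5.58e-12). PURPL, a long noncoding RNA, stood at 34.6, 49, 69.8 and 61.6 CPM and then at 10.9 and 7.21 CPM (-2.22). In none of these did the groups overlap.

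DAB2, an adaptor for clathrin-mediated uptake, was among the genes that moved in this knockout and little in the others. It stood at 10.8, 9.58, 11.3 and 12.6 CPM in the controls and at 1.41 and 1.44 CPM in the knockouts, a log2 fold change of -2.85, against -0.06 and 0.07 after the IGF2BP2 and IGF2BP3 knockouts. LRATD2 fell from 331 to 421 CPM to 71.8 and 73 CPM (log2 fold change -2.48), and the collagen receptor DDR2 fell from 38.2 to 71 CPM to 6.97 and 7.95 CPM (-2.40). Both were lower still after the other 2 knockouts, at -4.01 and -4.47 for LRATD2 and at -2.92 and -3.46 for DDR2, and all 4 differences between knockouts passed the test. The teneurin TENM1 fell by 2.52 and DACH2, a transcription cofactor, by 2.26.

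GSPT2, an intronless relative of the translation termination factor gene GSPT1, had no counts in either knockout library. It stood at 3.77, 4.94, 3.71 and 3.63 CPM in the controls, so it was at least 28.6-fold lower against a floor of 3 counts per library. The IGF2BP3 knockout also lowered it, and the IGF2BP2 knockout had a fitted log2 value of -0.61.

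Many of the lowered genes lay together in the genome. On chromosome 17, which carries IGF2BP1 itself, 621 of 1105 tested genes were lower and 18 higher, with a median log2 fold change of -0.487; this chromosome held 25.6% of all lowered genes. In the first 20 megabases (Mb) 221 of 295 tested genes were lower and 0 higher. Their median was -0.834, or 56.1% of the control level, with quartiles of -1.08 and -0.616. From 20 Mb to the end, 400 of 810 genes were lower and 18 higher, at a median of -0.376 or 77.1% of control. Chromosome 10 showed the same direction, with 263 of 717 genes lower, 17 higher and a median of -0.288 (81.9% of control). Over all other chromosomes 2347 of 16910 genes were higher and 1545 lower, with a median of 0.0334. Chromosome 7 lay the other way, with 211 of 840 genes higher, 38 lower and a median of 0.155. Smaller stretches outside chromosomes 10 and 17 were lowered too. On chromosome 8, 13 of 38 tested genes were lower and 3 higher between 120 and 130 Mb, where MYC and LRATD2 lie (median -0.209). Of 14 genes between 130 and 140 Mb, 9 were lower and 0 higher (median -0.834). From 140 Mb on, 32 of 107 were lower and 3 higher (median -0.253). These stretches of chromosome 8 were also lower in the other knockouts. Their medians, in order, were -0.26, -0.271 and -0.266 after the IGF2BP2 knockout and -0.235, -0.664 and -0.164 after the IGF2BP3 knockout. On chromosome 15, 25 of 75 were lower and 3 higher between 80 and 90 Mb (median -0.288). Between 90 and 100 Mb, where IGF1R lies, 17 of 60 were lower and 0 higher (median -0.240). The medians of these stretches of chromosome 15 were 0.127 and 0.322 after the IGF2BP2 knockout and 0.224 and 0.398 after the IGF2BP3 knockout. On chromosome 6, 20 of 51 were lower and 5 higher between 150 and 160 Mb, and 11 of 33 were lower and 1 higher between 160 and 170 Mb.

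**Figure D2:**
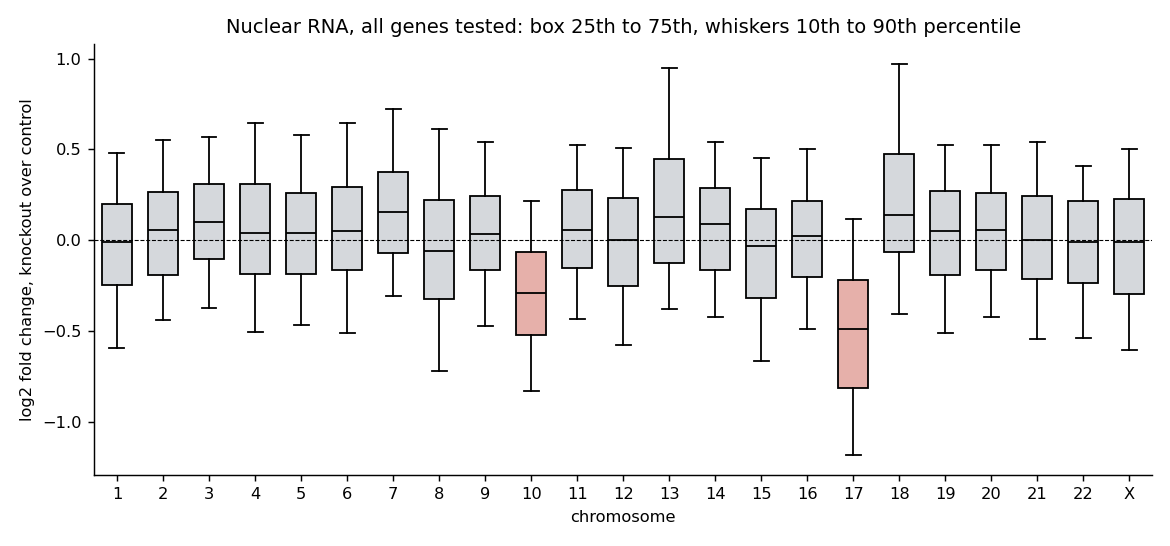
Log2 fold change of the IGF2BP1 knockout against control in nuclear RNA for the tested genes of each chromosome. Boxes span the 25th to the 75th percentile, whiskers the 10th to the 90th, and the coloured boxes are chromosomes 10 and 17, whose medians of -0.288 and -0.487 lie below those of the others.

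Both same-batch pairs gave the pattern. The median of the first 20 Mb of chromosome 17 was -0.809 in the pair of batch 1 and -0.831 in the pair of batch 2, and it was -0.866 in cytoplasmic RNA. In the IGF2BP2 and IGF2BP3 knockouts the medians of the same genes were -0.0212 and 0.171. In the tests of the difference, 191 of the 295 genes were lower in the IGF2BP1 than in the IGF2BP2 knockout and 0 higher, and 219 were lower than in the IGF2BP3 knockout and 1 higher. On chromosome 10 the other knockouts had medians of -0.213 and -0.0994. The DNA copy number of the clones was not tested.

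**Figure D3:**
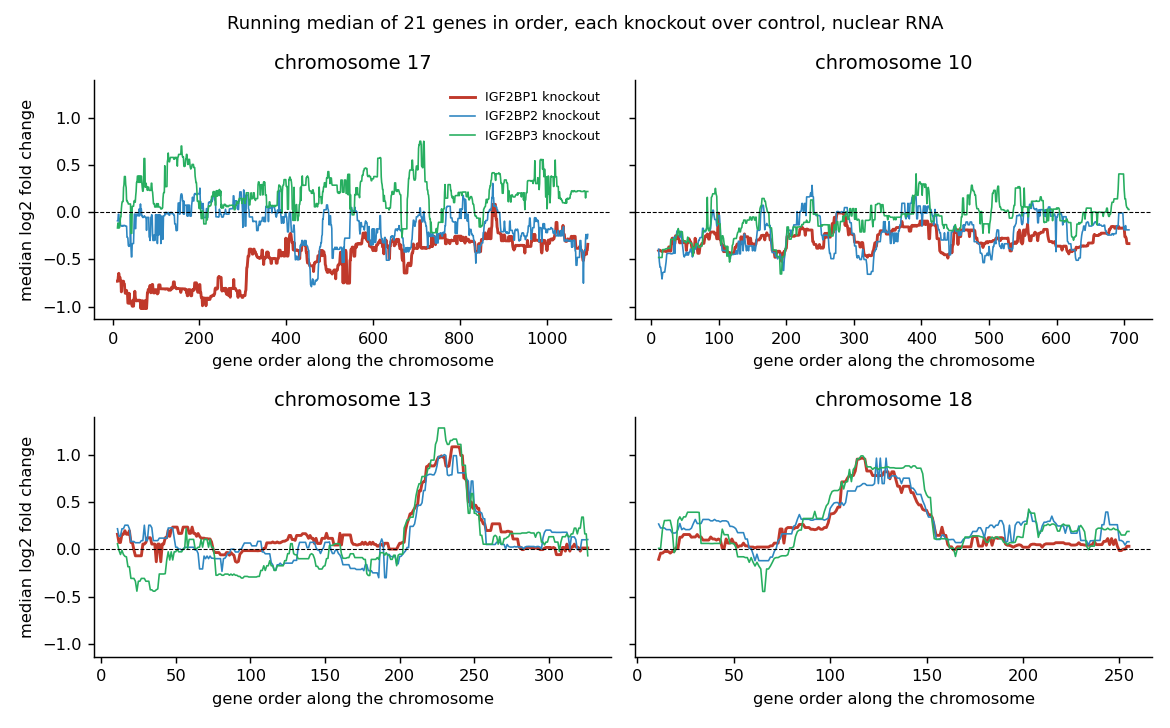
Running median of the log2 fold change over neighbouring tested genes on chromosomes 17, 10, 13 and 18, in gene order, for the nuclear RNA of the IGF2BP1, IGF2BP2 and IGF2BP3 knockouts. The IGF2BP1 line lies near -0.834 over the first genes of chromosome 17 and steps up to near -0.376 beyond them, while stretches of chromosomes 13 and 18 are raised in all 3 knockouts.

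Genes with well-known functions in the first 20 Mb of chromosome 17 were among those lowered. PRPF8, the large core protein of the spliceosome, stood at 1555, 1360, 1082 and 1086 CPM in the controls and at 642 and 770 CPM in the knockouts (log2 fold change -1.07). EIF5A, a translation elongation factor, stood at 1410, 1293, 1120 and 1166 CPM and then at 685 and 706 CPM (-0.97). C1QBP, a mitochondrial matrix protein, fell from 841 to 985 CPM to 411 and 400 CPM (-1.23). In all 3 the groups did not overlap.

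The same stretch holds NUP88 of the nuclear pore, the mitotic kinase AURKB, the m6A methyltransferase METTL16 and the m6A demethylase ALKBH5. Their log2 fold changes were -0.98, -0.83, -0.996 and -0.77. Of the 21 tested m6A writers, erasers and readers 3 were lower and 0 higher, and METTL16 and ALKBH5 were 2 of those 3; the called share of 14.3% lies below the 25.7% over all genes. The homeobox genes of the HOXB cluster, further along the chromosome near IGF2BP1, were also lower, at 7 of the 9 tested genes on this chromosome. HOXB9 stood at 271, 259, 270 and 266 CPM in the controls and at 136 and 145 CPM in the knockouts (log2 fold change -0.93), HOXB5 fell by 1.36 and HOXB6 by 1.20. HOXB7 at -0.26 (adjusted p = 0.105) and HOXB13 at -0.20 (adjusted p = 0.163) did not pass. Of the 29 HOX genes on other chromosomes 4 were higher and 3 lower.

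Larger changes were found on chromosome 17 as well. LGALS3BP, a secreted glycoprotein that interferon induces, stood at 136, 130, 119 and 119 CPM in the controls and at 16.6 and 19.3 CPM in the knockouts (log2 fold change -2.91 ± 0.110, adjusted p = 7.5e-26). It was at -0.56 after the IGF2BP2 knockout and at 1.30 after the IGF2BP3 knockout. SERPINF1, which encodes the antiangiogenic factor PEDF, fell from 65.8 to 93 CPM to 14.6 and 14.5 CPM (-2.26), against -0.36 and 1.08. Both lay well below the median of their chromosome.

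Stretches of chromosomes 13 and 18 were higher in all 3 knockouts. Between 70 and 80 Mb of chromosome 13, 23 of 26 tested genes were higher, with a median of 0.925, beside 0.792 and 0.902 in the IGF2BP2 and IGF2BP3 knockouts. SLAIN1, a microtubule-binding protein, stood at 23.8, 23.1, 21 and 21.9 CPM in the controls and at 84.6 and 84.4 CPM in the knockouts (log2 fold change 1.83). Between 30 and 40 Mb of chromosome 18, 30 of 45 tested genes were higher, with a median of 0.782, beside 0.679 and 0.874. Over all genes tested 12.7% were higher in the IGF2BP1 knockout. These stretches are raised in 3 knockouts against 1 set of control cells. A change in the knockout cells and one in the control cells therefore cannot be told apart.

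Messenger RNAs that the literature describes as bound by the IGF2BP family did not move one way as a group. Of 28 tested, 7 were lower and 3 higher, a called share of 35.7% beside 25.7% over all genes, with a median log2 fold change of -0.04. None of the 28 lies on chromosome 17, but MYC and IGF1R lie in the lowered stretches of chromosomes 8 and 15 described above. The lowered member SIRT1 lies on chromosome 10. The lowered members included the best-known ones. MYC, the transcription factor, stood at 298, 289, 263 and 257 CPM in the controls and at 118 and 114 CPM in the knockouts. This is 39% of the control level (log2 fold change -1.36 ± 0.0967, adjusted p = 1.89e-15), and MYC was at -0.79 and -2.04 after the IGF2BP2 and IGF2BP3 knockouts. HMGA2, an architectural chromatin protein of the embryo, stood at 65.6, 64, 72.9 and 76.9 CPM and then at 23.4 and 25.4 CPM (-1.43), against -0.02 and -0.67 in the other knockouts.

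CCND1, which encodes cyclin D1, stood at 36.1, 36.6, 23.8 and 22.6 CPM in the controls and at 14.5 and 17.4 CPM in the knockouts (log2 fold change -1.21). The actin-bundling protein gene FSCN1 fell by 0.82, IGF1R, the receptor for insulin-like growth factors, by 0.57, the deacetylase SIRT1 by 0.34 and the glucose transporter SLC2A1 by 0.28. FOXM1, CTNNB1 and CDK6 were the 3 higher members, at 0.45, 0.40 and 0.34. CTNNB1 stood at 794, 868, 774 and 740 CPM in the controls and at 1127 and 1089 CPM in the knockouts, with no overlap.

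Of the 16 tested D-type cyclins, their kinases and inhibitors, 2 were lower and 5 higher, a called share of 43.8% beside 25.7% over all genes. The 2 lower ones were CCND1 and CCND2, which encodes cyclin D2. CCND2 stood at 55.4, 64.5, 79.7 and 78.7 CPM in the controls and at 14.2 and 14.2 CPM in the knockouts, or 23.5% of control (log2 fold change -2.09 ± 0.104, adjusted p = 4.65e-21). It was at 0.42 and -0.39 in the other knockouts. Among the 5 higher ones, the inhibitors CDKN2C and CDKN1B rose by 0.98 and 0.68, and RB1, the retinoblastoma gene, by 0.45. CDKN2C stood at 35.1, 33.4, 38.6 and 36.2 CPM and then at 72.6 and 64.7 CPM. The inhibitor CDKN1A did not pass the test, at 18.4, 20.6, 21.2 and 20.6 CPM in the controls and 20.8 and 18.7 CPM in the knockouts (0.00, adjusted p = 1), while it was at 1.77 and 1.69 in the other knockouts.

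In insulin-like growth factor signalling 8 of 26 tested genes were higher and 5 lower, with a median of 0.10. This is a called share of 50%, beside 25.7% over all genes. The binding proteins IGFBP7 and IGFBP5, which hold these growth factors outside the cell, rose by 1.77 and 1.00, and the receptor adaptor GRB14 fell by 0.96. IRS4, the main insulin receptor substrate of this line, stood at 2348 to 2915 CPM in the controls and at 2174 and 1928 CPM in the knockouts (log2 fold change -0.36, adjusted p = 0.0394). IGF2 itself, for whose mRNA the family is named, was at 0.938 to 1.34 CPM in the controls and 1.51 and 0.791 CPM in the knockouts, with no call (adjusted p = 0.604).

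Genes of cholesterol synthesis were higher as a group. Of 40 tested genes of cholesterol and fatty acid synthesis 25 were higher and 5 lower, a called share well above the 25.7% of all genes, and the median log2 fold change was 0.37. The medians in the IGF2BP2 and IGF2BP3 knockouts were -0.36 and 0.03. In most cells this pathway is under the control of SREBP transcription factors, which are held in the endoplasmic reticulum by INSIG proteins when sterols are plentiful. Leaving out the 4 members on chromosome 17, 25 of 36 were higher and 1 lower, with a median of 0.40.

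INSIG1, both a regulator and a target of this system, stood at 106, 105, 91 and 96.2 CPM in the controls and at 248 and 248 CPM in the knockouts. The knockouts were 2.33-fold higher (log2 fold change 1.22 ± 0.0934, adjusted p = 2.3e-14), and INSIG1 was at -0.82 and 0.18 in the other knockouts. INSIG1 lies between 150 and 160 Mb of chromosome 7, where 25 of 59 tested genes were higher and 1 lower. Over all genes 12.7% were higher and 13% lower. The median of that stretch was 0.284, beside -0.345 and 0.232 in the IGF2BP2 and IGF2BP3 knockouts. The part of this stretch in the result was not tested. Enzymes from the beginning to the end of the sterol pathway were raised. HMGCS1, an enzyme of the first steps, rose by 0.75, MVD by 0.79 and FDPS by 0.53. IDI1, the isopentenyl diphosphate isomerase, stood at 80.3, 84.8, 93 and 97 CPM and then at 184 and 172 CPM (1.09); its gene lies on chromosome 10.

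Among the later enzymes MSMO1, a sterol methyl oxidase, rose from 30.1 to 39.9 CPM in the controls to 84.2 and 87.1 CPM (1.12). CYP51A1, the lanosterol demethylase, stood at 7.38, 6.63, 4.19 and 5.75 CPM and then at 14.1 and 14.1 CPM (1.00), and it was lower in the other knockouts, at -1.28 and -0.98. It lies between 90 and 100 Mb of chromosome 7, where the medians were 0.157, -0.298 and -0.301 in the IGF2BP1, IGF2BP2 and IGF2BP3 knockouts. TM7SF2 rose by 1.20. FADS2, a desaturase of polyunsaturated fatty acids, rose from 53.5 to 61 CPM to 163 and 163 CPM (1.47), and was at 0.10 and 1.88 in the other knockouts.

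Some familiar members did not pass the test. SQLE was at 0.07 (adjusted p = 0.619) and SCD at -0.04 (adjusted p = 0.843). The lowered members were mainly those of fatty acid synthesis, and 4 of the 5 lie on chromosome 17. SREBF1, which encodes the SREBP that favours fatty acid genes, stood at 104, 105, 112 and 103 CPM in the controls and at 44.9 and 37 CPM in the knockouts (-1.38 ± 0.0980, adjusted p = 1.84e-15); its gene is at 17810399 to 17837002, within the first 20 Mb. ACLY, FASN and ACACA, the enzymes from citrate to palmitate, fell by 0.73, 0.56 and 0.41. For FASN and ACACA the knockouts overlapped controls 3 and 4 but not the controls of their own batches. The fifth, ELOVL6 on chromosome 4, fell by 0.30. SREBF2, whose product favours sterol genes, stood at 145, 137, 167 and 162 CPM and then at 230 and 220 CPM (0.66).

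**Figure D4:**
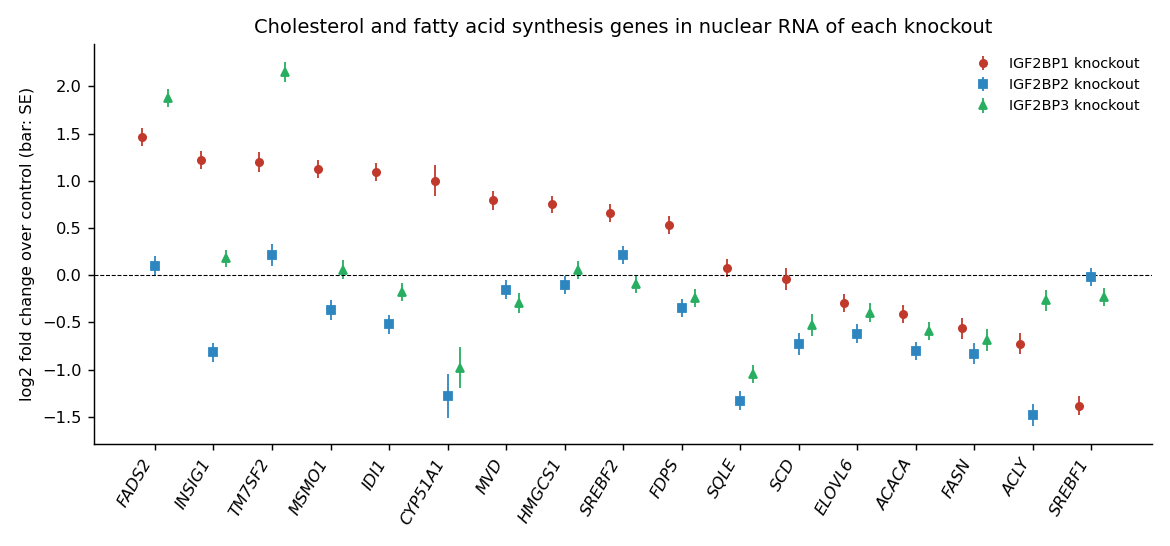
Log2 fold change against control in nuclear RNA, with bars of 1 standard error, for named genes of cholesterol and fatty acid synthesis in the IGF2BP1, IGF2BP2 and IGF2BP3 knockouts. The IGF2BP1 points run from 1.47 for FADS2 to -1.38 for SREBF1, and for CYP51A1 and INSIG1 they lie above 0 where those of the IGF2BP2 knockout lie below it.

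Since these genes moved together, their promoters were searched for the letters of known factor sites in the 250 bases before the RefSeq start site (GRCh38.p14), on both strands. The sterol element TCACNCCAC was found in 0.883% of 35116 promoters and in 1 of the 33 matched members of the list. The CCAAT box was found in 32% of all promoters, in 21 of the 33 members and in 16 of the 22 matched members that were higher. The E-box CACGTG was found in 6.34% of all promoters and in 4 of the 33. None of the 3 motifs contains another. The single match to the sterol element was in the promoter of SREBF2, on the plus strand at chr22:41832942-41833010, and is shown here with the element in capitals, since SREBF2 is known to be regulated by its own product.
SREBF2 promoter: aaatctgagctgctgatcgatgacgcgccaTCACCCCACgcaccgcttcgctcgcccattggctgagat
A match of letters is a description and not a measured binding site.

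Of 31 tested genes of the integrated stress response 16 were lower, 3 were higher and 12 were not called, beside 13% lower and 12.7% higher over all genes, with a median log2 fold change of -0.28, and 0 of them lie on chromosome 17. In this response, phosphorylation of a translation initiation factor lets the transcription factor ATF4 be made, which turns on genes of amino acid supply. The medians of the same genes were 0.79 in the IGF2BP2 knockout and 0.06 in the IGF2BP3 knockout.

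CHAC1, which degrades glutathione, stood at 23.4, 24.3, 17.4 and 18.1 CPM in the controls and at 10 and 10.2 CPM in the knockouts (log2 fold change -1.25 ± 0.113, adjusted p = 3.13e-12). It went up in the other knockouts, at 2.36 and 1.72, and its difference from the IGF2BP2 knockout was -3.61. ASNS, the asparagine synthetase, fell from 18.5 to 24.7 CPM to 12 and 8.19 CPM (-0.92). SLC7A11, the cystine transporter, stood at 81.5, 101, 132 and 136 CPM and then at 55.7 and 62.2 CPM (-0.64). CTH and CBS, which make cysteine, fell by 0.77 and 0.66, and DDIT3 by 0.51.

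The secreted stress factor GDF15 fell by 1.55 from low levels of 0.843 to 1.8 CPM. ATF4 RNA itself stood at 740, 692, 921 and 960 CPM in the controls and at 814 and 752 CPM in the knockouts, with no call (0.11, adjusted p = 0.524). The 3 higher members were TRIB3, a pseudokinase that restrains ATF4, at 0.40, ATF5 at 0.64 and NUPR1 at 1.32. Aminoacyl-tRNA synthetases, several of which ATF4 also induces, had 6 of 35 lower (17.1%) and 0 higher, beside 13% lower and 12.7% higher over all genes. Their median log2 fold change was -0.166, with 4 of the 35 above 0. In the cytoplasm 23 of the 35 were lower and 0 higher, beside 21.6% lower and 23.1% higher over all genes there.

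The host transcript of the microRNA miR-34a was lower. MIR34AHG (chromosome 1, 9148011 to 9198906, minus strand) stood at 14.1, 19.6, 28.9 and 25.8 CPM in the controls and at 5.04 and 3.16 CPM in the knockouts (log2 fold change -2.06 ± 0.163, adjusted p = 6.39e-14). Of 32 tested microRNA host genes named as such, 4 were lower and 3 higher, a share below the 25.7% over all genes. These and other host genes named here were picked after their values were seen. MIR9-1HG, host of the neural miR-9, fell by 1.07, and MIR646HG rose by 2.07, from 0.313 to 0.805 CPM to 3.63 and 3.16 CPM. MIR924HG rose by 1.41 and lies in the raised stretch of chromosome 18. MIR222HG at -0.52 and MIR22HG at -0.86 passed the test, but their groups overlapped and their sign turned, to 0.275 and 0.0248, without knockout replicate 2.

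The libraries measured the host transcripts and not the mature microRNAs. 1 mature arm of each microRNA from MIR34AHG, MIR9-1HG, MIR222HG, MIR924HG and MIR646HG is given (RefSeq, GRCh38.p14), and none from MIR22HG. The seed, bases 2 to 8, is in capitals, because it decides which mRNAs a microRNA can pair with.
miR-34a-5p, from MIR34AHG, chr1:9151735-9151756, minus strand: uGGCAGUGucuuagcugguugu
miR-9-5p, from MIR9-1HG, chr1:156420392-156420414, minus strand: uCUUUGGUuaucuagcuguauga
miR-221-3p, from MIR222HG, chrX:45746180-45746202, minus strand: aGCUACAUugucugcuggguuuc
miR-222-3p, from MIR222HG, chrX:45747036-45747056, minus strand: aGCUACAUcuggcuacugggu
miR-924, from MIR924HG, chr18:39622153-39622172, minus strand: aGAGUCUUgugaugucuugc
miR-646, from MIR646HG, chr20:60308534-60308552, plus strand: aAGCAGCUgccucugaggc
Of the arms shown, miR-221-3p and miR-222-3p share 1 seed, and the others have seeds of their own.

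Of 28 tested genes of glycolysis and lactate transport 13 were lower and 1 higher, with a median of -0.20. This is a called share of 50%, beside 25.7% over all genes. Of the lower ones 3 are on chromosome 17 and 4 on chromosome 10. PFKP, the platelet-type phosphofructokinase on chromosome 10, stood at 176, 163, 152 and 144 CPM in the controls and at 77.5 and 76 CPM in the knockouts (log2 fold change -1.16). Off these chromosomes the glucose transporter SLC2A3 fell by 1.18, from 8.69 to 10.8 CPM to 3.86 and 4.09 CPM, and the hexokinase HK2 by 0.57. ENO2, the neuronal enolase, was the 1 higher member, at 16.4 to 17.8 CPM in the controls and 35.5 and 30.1 CPM in the knockouts (0.92). Without knockout replicate 1, 9 members were lower and the median was -0.07.

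Host genes of small nucleolar RNAs, whose introns carry RNAs that guide the modification of ribosomal RNA, were lower at 13 of 27 and higher at 2. This is a called share of 55.6%, beside 25.7% over all genes. The median was -0.36, and -0.27 over the 22 members off chromosome 17, of which 8 were lower. The pairs differed: the median was -0.09 in batch 1 and -0.61 in batch 2. In the same pairs the summed nuclear RNAs went from 604 to 733 CPM and from 747 to 611 CPM, and the part of this in the result was not tested. Without knockout replicate 2, 8 members were lower and the median was -0.09. SNHG3 stood at 212, 231, 212 and 204 CPM in the controls and at 137 and 106 CPM in the knockouts (-0.89), and SNHG19 fell by 0.93. The related DANCR stood at 116, 111, 105 and 111 CPM and then at 56 and 52.2 CPM (-1.09). GAS5 stood at 298, 357, 443 and 411 CPM and then at 292 and 208 CPM (-0.42), and SNHG11 and ZFAS1 were the 2 higher members, at 0.45 and 0.26.

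Replication-dependent histone genes, whose mRNAs normally end in a stem-loop without a poly(A) tail, were higher at 13 of 34 and lower at 0, with a median of 0.88. This is a called share of 38.2%, beside 25.7% over all genes. The medians in the IGF2BP2 and IGF2BP3 knockouts were 1.00 and 1.47. H1-2 stood at 16.6, 13.3, 16.5 and 17.6 CPM in the controls and at 36.8 and 31.4 CPM in the knockouts (1.18), and H2BC11 and H2AC6 rose by 1.16 and 1.18. Because the libraries were selected for poly(A), these values cover only the histone transcripts that this selection retained.

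Of 76 tested nuclear-encoded subunits of the respiratory chain 28 were higher and 4 lower, with a median of 0.13. The median was 0.107 in the pair of batch 1 and 0.185 in the pair of batch 2. Without knockout replicate 2 fewer members were higher and more were lower. The called share of the 76 was 42.1%, beside 25.7% over all genes. In the cytoplasm 5 of the 76 were higher and 31 lower, at a median of -0.0872. Over all genes in the cytoplasm 23.1% were higher and 21.6% lower. COX7C and NDUFA4 rose in the nucleus by 0.52 and 0.53. Among 15 RNAs of the mitochondrial genome 3 were higher and 3 lower, a called share of 40%. MT-ND5 rose by 0.53, and the light-strand transcript MT-ND6 and the ribosomal MT-RNR2 and MT-RNR1 fell by 0.75, 0.60 and 0.45. Mitochondrial tRNAs were lower at 9 of 14, although short RNAs are poorly held by this kind of library. Cytosolic ribosomal protein genes had 6 of 85 higher and 8 lower in the nucleus, a called share of 16.5%. In the cytoplasm 75 of the 85 were lower and 1 higher, beside 21.6% lower and 23.1% higher over all genes there. RPL26 and RPL19, at -0.74 and -0.54, lie on chromosome 17.

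Innate immune genes, the subject of the series title, moved both ways. Of 43 tested interferon-stimulated genes 9 were higher and 10 lower, with a median of 0.03, beside medians of 0.36 and 0.99 in the IGF2BP2 and IGF2BP3 knockouts. Leaving out chromosome 17, 9 were higher and 7 lower. The called share of the 43 was 44.2%, beside 25.7% over all genes. DTX3L, a ubiquitin ligase, stood at 4.02, 4.75, 4.14 and 3.69 CPM in the controls and at 10.7 and 12.1 CPM in the knockouts (log2 fold change 1.36), and OAS3, which senses double-stranded RNA, rose from 1.25 to 3.07 CPM to 5.23 and 6.33 CPM (1.13). IFITM1, a membrane protein that blocks virus entry, fell from 5.78 to 7.19 CPM to 2.64 and 2.37 CPM (-1.31).

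Of 40 tested genes of innate sensing and interferon signalling 3 were higher and 8 lower, with a median of 0.03; the called share of 27.5% is near the 25.7% over all genes. IKBKE, a kinase that activates interferon regulatory factors, stood at 9.75, 10.6, 12.1 and 9.5 CPM and then at 2.64 and 2.6 CPM (-1.97 ± 0.184, adjusted p = 7.5e-12). It was at -3.02 and -0.06 in the other knockouts. The receptor TLR6 fell by 1.65.

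In MHC class I presentation 8 of 20 tested genes were higher in the nucleus and 2 lower, with a median of 0.27. This is a called share of 50%, beside 25.7% over all genes. HLA-C and B2M, the heavy and light chains, were higher by 0.35 and 0.27, and TAP2, part of the peptide transporter, and NLRC5, the transactivator of the class, fell by 0.80 and 0.86. TAP2 stood at 39.9, 42.1, 43.3 and 41.5 CPM in the controls and at 23.4 and 24.1 CPM in the knockouts. The count of higher members was 3 with DESeq2 and 3 without knockout replicate 2. In cytoplasmic RNA of this knockout the class I genes went the other way, with 3 of 20 higher, 10 lower and a median of -0.186. Over all genes in cytoplasmic RNA 23.1% were higher and 21.6% lower. In the nucleus, endoplasmic reticulum chaperones had 6 of 23 higher and 0 lower, at a median of 0.19. Their called share of 26.1% is near the 25.7% over all genes.

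**Figure D5:**
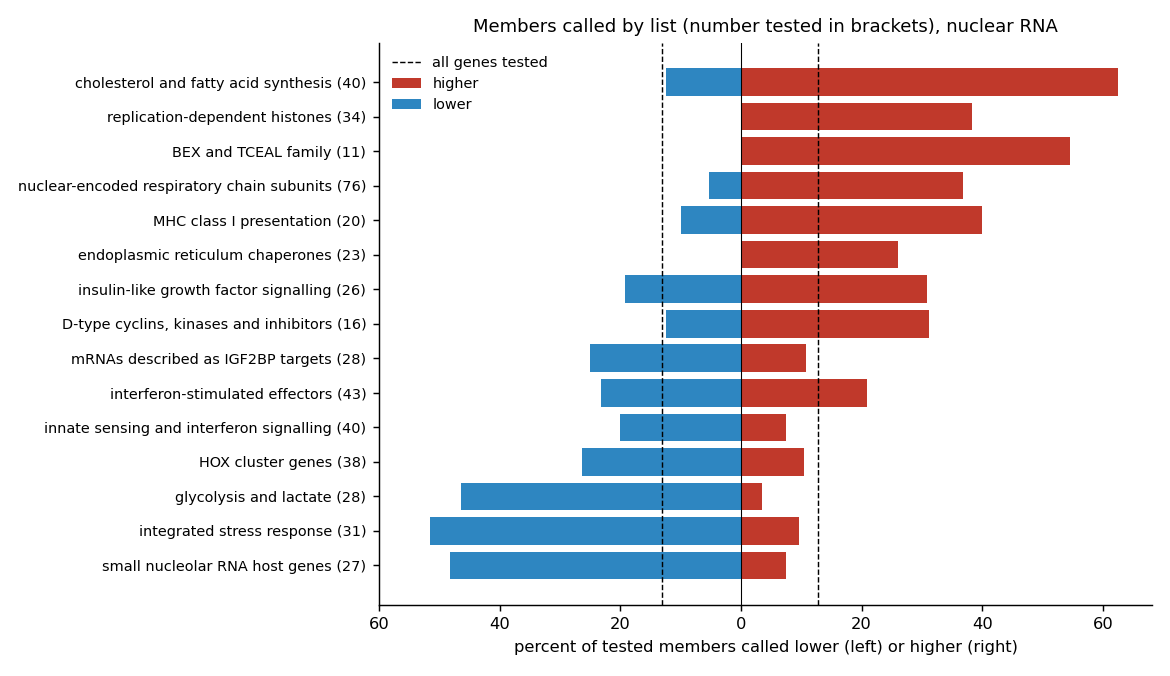
Percent of tested members higher and lower in the nuclear RNA of the IGF2BP1 knockout for the gene lists named on the axis, with dashed lines at the shares of all tested genes, 12.7% higher and 13% lower. Cholesterol and fatty acid synthesis reaches the farthest to the higher side with 25 of 40 members, and the integrated stress response the farthest to the lower side with 16 of 31.

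The knockout was next set against the other 2 in tests of the difference itself, each knockout relative to the controls of its own batches. The IGF2BP1 and IGF2BP2 effects differed at 5256 genes (28.1%) and the IGF2BP1 and IGF2BP3 effects at 6498 (34.7%). Without control replicate 3 these counts were 3229 and 4324, and without control replicate 4 the first was 3394. Called genes that also differed from both other knockouts in the same direction numbered 966, of which 388 were higher and 578 lower. With IGF2BP1 itself they included BEX1, CYP51A1, CHAC1, DAB2 and LGALS3BP. ULBP1, a stress-induced ligand of natural killer cells, stood at 4.48 to 5.82 CPM in the controls and 3.01 and 2.98 CPM in the knockouts (-0.65), against 2.06 and 1.71 in the other knockouts. PTMAP4 and PTMAP9, processed copies of the prothymosin gene PTMA, rose by 1.06 and 1.12. Because such copies share reads with their parent gene, their counts are uncertain. Called genes were fewer here than in the other nuclear comparisons, at 25.7% beside 49.7% for the IGF2BP2 and 50.4% for the IGF2BP3 knockout.

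Most nuclear changes had a counterpart in the cytoplasm, whose libraries do not include the shared one. Of the 4811 nuclear calls, 4748 were tested in cytoplasmic RNA, where 8069 of 18033 genes (44.7%) were called. The genes called in both, 3518, were 73.1% of the nuclear and 43.6% of the cytoplasmic calls, and 3453 of them had the same sign. The cytoplasmic log2 fold changes were -4.27 for IGF2BP1, -1.37 for MYC, -1.51 for HMGA2, 1.00 for INSIG1, -1.20 for CHAC1 and 3.38 for BEX1. In the test of the difference 794 of 19310 genes (4.11%) differed between the fractions. This count was 520 without nuclear knockout replicate 1 and 0 without nuclear knockout replicate 2, so it rests on single libraries.

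By list, the called differences between fractions included 39 of 85 cytosolic ribosomal protein genes, 19 of 76 respiratory chain subunits, 7 of 20 genes of MHC class I presentation and 5 of 15 RNAs of the mitochondrial genome. NME2, a nucleoside diphosphate kinase on chromosome 17, went from a mean of 27.8 to 36.1 CPM in nuclear RNA and from 40.5 to 21.2 CPM in cytoplasmic RNA. NME2 is closely similar to its neighbour NME1 and overlaps a transcript that joins both, so its counts are uncertain. The difference was 1.43 ± 0.146 (adjusted p = 1.85e-13), but nuclear knockout replicate 2 was at 28.8 CPM beside 43.3 CPM in replicate 1. PURPL fell by 2.22 in the nucleus and by 1.47 in the cytoplasm, a difference of -0.73 (adjusted p = 0.0123). ISG20, SLC24A2 and CCDC92B also passed, from means under 2 CPM.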

How the data were processed

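Members and gene lists were chosen with earlier results of these data known. The authors deposited gene counts per fraction, whole numbers for 62703 identifiers, made with STAR, featureCounts and GRCh38 per the submitters' processing notes, which also name DESeq2 1.44.0; the annotation and the use of strand in counting are not given in the sources used here, so overlapping and antisense genes may share reads. The FPKM values the authors deposited match division by the whole gene span (100% of 12485 genes within 5%) and serve only in alternatives, as log2(FPKM + 1) or log2(FPKM + 0.1) in limma 3.58.1. Counts of all 10 nuclear libraries were fitted with edgeR 4.0.16 (R 4.3.3; TMM, filterByExpr by group with a minimum count of 10, quasi-likelihood test, Benjamini-Hochberg adjustment over all genes tested, call at 0.05) with batch and knockout terms. Replicate numbers 1 and 2 are batches 1 and 2 in the labels, so the batch term is the pairing. The cytoplasmic libraries were fitted alike, and an interaction fit compared the fractions. SE is the log2 fold change divided by the root of F. CPM use total counts. Genes without a symbol (20403 identifiers) were tested but not named; positions and types come from GENCODE 29 by identifier (58279 matched). Genes were named if they belonged to the IGF2BP family, had the largest changes at 5 CPM or more with the same sign in both pairs, had the largest CPM differences, led or described a list, differed from both other knockouts or between fractions, or were markers; not all of these genes and lists are reported here. MIR34AHG, MIR9-1HG, MIR222HG, MIR924HG and MIR646HG, and the 20 Mb bound on chromosome 17, were chosen after their values were seen. The scripts were tested on simulated data. Alternatives were other scaling (RLE, upper quartile), low-count filters, DESeq2 1.42.0, limma, no batch term, fewer libraries, each replicate left out and, chosen after seeing the data, leaving out the genes of chromosomes 17 or 10 and 17.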

Additional observations from a re-analysis of the deposited data

Results flagged for a closer look

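Among 170 named genes whose 4 control libraries were examined, 4 had 1 control far from the other 3, where chance gives about 1 in 20. IGF2 was at 0.938 CPM in control replicate 4, GSPT2 at 4.94 CPM in control replicate 2, MDM2 at 111.6 CPM in control replicate 1 and SLC22A31 at 7.18 CPM in control replicate 3.

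Differences between knockouts are listed because the test of the difference passed, for 5256 genes between the IGF2BP1 and IGF2BP2 effects and 6498 between the IGF2BP1 and IGF2BP3 effects. The genes differing most from both had IGF2BP1 minus IGF2BP2 log2 values of 8.004 for BEX1, 2.55 for SLC22A31, 2.28 for CYP51A1, 1.65 for PTMAP4 and 1.57 for PTMAP9 on the higher side. On the lower side they were -3.61 for CHAC1, -3.59 for IGF2BP1, -2.78 for DAB2, -2.71 for ULBP1 and -2.35 for LGALS3BP. Control replicate 3 is the high one for SLC22A31, which stood at 3.61 to 7.18 CPM in the controls and 10.7 and 5.39 CPM in the knockouts.

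Differences between fractions passed for 794 genes. The nuclear minus cytoplasmic log2 values were 3.77 for SLC24A2, 2.99 for GPX1P1, 1.84 for RPS14P8 and 1.43 for NME2 on the higher side. They were -2.72 for ISG20, -1.87 for CCDC92B, -1.44 for UBE2Q2P1 and -1.44 for SLFNL1-AS1 on the lower side. NME2 aside, these genes had means under 10 CPM in both fractions. GPX1P1, RPS14P8 and UBE2Q2P1 are pseudogenes, whose reads can be shared with a parent gene, and SLFNL1-AS1 is an antisense gene.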

How the results depend on the processing

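The 4811 called genes were 3062 with DESeq2, 1709 and 1805 with limma on log2(FPKM + 1) and log2(FPKM + 0.1), 3129 from the control and IGF2BP1 knockout libraries alone and 3129 from batches 1 and 2 alone. Higher genes (2382) were 1455, 757, 822, 1380 and 1477 under these 5 settings, lower genes (2429) were 1607, 952 and 983 under the first 3, and genes changed by at least 1 (842) were 530, 56 and 216. Of the DESeq2 calls 3047 were shared, all with the same sign. The count without the replicate block, that is without the batch term, was 4400, with 3595 shared; the IGF2BP1 minus IGF2BP2 count then went from 5256 to 8554, and with DESeq2 to 3399. Leaving out 1 library at a time gave 3326 to 4515 called genes and 1533 to 2248 higher genes. It gave 3229 to 5108 for the IGF2BP2 contrast, 4324 to 6400 for the IGF2BP3 contrast and 0 to 520 for the difference between fractions; with 1 knockout library left, its spread is assumed to be that of the other groups. Leaving out 1 library at a time, MIR222HG ranged from -1.32 to 0.275 and MIR22HG from -1.87 to 0.0248, both turning without control or knockout replicate 2. Leaving out the genes of chromosome 17 gave 3977 calls, and of chromosomes 10 and 17 3656. Of 159 called genes named in the text, DESeq2 kept 142, limma 111 and 112, and no batch term 146. The cause of these changes was not tested. With 2 knockout libraries, taken to be of 1 clone, genes at a few counts have wide errors, and folds of genes at 0 are bounds.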

Other observations

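Most other gene groups in the nuclear RNA of the knockout had called members in both directions, clustered protocadherins aside, beside 12.7% higher and 13% lower over all genes. Counts were, for extracellular matrix and its receptors 15 of 85 higher and 20 lower, for axon guidance 15 of 63 higher and 14 lower and for the Wnt pathway 11 of 49 higher and 12 lower. They were, for the TGF-beta and BMP pathway 6 of 48 higher and 8 lower, for FGF signalling 6 of 32 higher and 5 lower, for the Notch pathway 3 of 23 higher and 3 lower, for YAP and TAZ targets 3 of 29 higher and 5 lower and for imprinted genes 4 of 25 higher and 5 lower. Cadherins and catenins had 2 of 14 higher and 1 lower, and clustered protocadherins 3 of 11 higher and 0 lower.

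Of the machinery of RNA and the cell cycle, counts were, for mitosis 9 of 41 higher and 4 lower, for replication 2 of 46 higher and 6 lower, for the nuclear pore and mRNA export 5 of 59 higher and 9 lower and for splicing regulators 5 of 74 higher and 5 lower. They were, for nuclear RNA surveillance 1 of 24 higher and 6 lower, for mRNA decay 8 of 63 higher and 7 lower, for translation initiation and termination factors 3 of 38 higher and 10 lower and for well-known long noncoding RNAs 4 of 36 higher and 7 lower. Zinc finger genes named ZNF, the longest list, had 68 of 442 higher and 42 lower, a called share of 24.9%. Cancer-testis genes had 2 of 10 higher and 3 lower, and oncofetal RNA-binding proteins and their partners had 1 of 11 higher and 2 lower.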
